A study of Rattus norvegicus with 9 samples.

Results

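miR-28 and miR-151 are small regulatory RNAs whose hairpin precursors derive from LINE-2 transposon sequence. Each precursor is cut into a 5p and a 3p arm, giving the 4 mature miRNAs described here: miR-151-3p, miR-151-5p, miR-28-3p and miR-28-5p. They were found by exact name, without the species prefix, and all 4 are among the 567 miRNAs of the count matrix. The serum came from wildtype adult male Wistar rats in 3 groups of 3 libraries. LPD animals (late stage) received rotenone, an inhibitor of mitochondrial complex I used to model Parkinson's disease, at 2 mg per kg per day by intraperitoneal injection for more than 40 days, up to a terminal stage. EPD animals (early stage) received the same dose for 10 days. Control animals form the remaining group, and what they were given is not stated, since the treatment label is worded alike for all 9 samples.

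An arm guides Argonaute to messenger RNAs that pair with its seed, bases 2 to 8 from the 5′ end, so the arms of 1 hairpin repress different targets. In the RefSeq rat annotation (GRCr8) the Mir28 locus lies within the span of Lpp on chromosome 11 and the Mir151 locus within that of Ptk2, the focal adhesion kinase gene, on chromosome 7. In human colorectal cancer cells the 3p arm of miR-28 is known to act on other targets than the 5p arm. miR-151-5p is known from human liver cancer cells, where it promotes cell migration. The miR-151 precursor is a known substrate of adenosine-to-inosine editing.

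The mature miR-28 arms are shown beside those of miR-708, because the 5p arms of both share a seed. The sequences are RefSeq's (GRCr8), written 5′ to 3′ with the seed in capitals.
miR-28-5p: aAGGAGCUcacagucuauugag
miR-708-5p: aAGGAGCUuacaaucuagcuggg
miR-28-3p: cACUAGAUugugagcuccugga
miR-708-3p: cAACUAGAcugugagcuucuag
The 5p arms of miR-28 and miR-708 have the same seed, AGGAGCU, which no other of the 693 mature rat miRNAs in the table has, and 16 of 22 aligned bases are identical. The 3p arms have different seeds, ACUAGAU and AACUAGA. Shifted by 1 base, they match at 17 of 21 aligned bases. miR-28-3p lies at chr11:89480263-89480284 and miR-28-5p at chr11:89480303-89480324, both on the minus strand of GRCr8. The table gave sequences for 2 of the 4 arms, those of miR-28, so the miR-151 arms were not compared with miR-28 or miR-708.

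The 3p arm was the more abundant arm at both loci in all 9 libraries. Depth was lowest in LPD, and how far it accounts for the lack of 5p counts there was not tested. The LPD libraries held 132609 to 305019 counts, against 1136537 to 1668807 in EPD and 1108167 to 1539557 in Control. They also had few miRNAs with 1 to 9 counts (3 to 39, against 127 to 155 in EPD and 150 to 157 in Control). From the number of miRNAs without counts, 1 molecule was estimated to stand for 36.7, 49.1 and 12.3 counts in LPD 1, LPD 2 and LPD 3, against 1.92 to 2.83 in EPD and 1.07 to 3.09 in Control. This estimate takes the mean EPD and Control profile as that of every serum. If miRNAs were truly lost from LPD serum, it would put the number of molecules too low. The smallest count above 0 was 1 in each LPD library, below the counts of 1 estimated molecule, so the estimate is rough. Control 2 stood apart by liver miRNAs, with miR-122-5p at 44.3% of its counts. Serum holds no cells, so fewer releasing cells, less release per cell and faster clearance cannot be told apart.

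miR-151-3p rose in LPD. It had 503, 796 and 665 CPM (counts scaled to a common library size with TMM factors) in LPD, against 146, 134 and 218 in EPD and 257, 326 and 166 in Control. Every LPD library lay above every EPD and Control library, as for 19 of 294 tested miRNAs (6.46%) against Control and 20 (6.8%) against EPD, while EPD and Control overlapped. The means were 655 ± 147 CPM in LPD, 166 ± 45.3 in EPD and 250 ± 80.0 in Control (SD, n = 3 each). Against Control the rise was 2.62-fold (log2 fold change 1.39, SE 0.46, edgeR quasi-likelihood adjusted p = 0.0392). Against EPD it was 3.94-fold (log2 fold change 1.98, SE 0.47, adjusted p = 0.0102). These calls stand beside a background of 13 of 294 tested miRNAs (4.42%) called higher in LPD than in Control, and 12 (4.08%) called higher than in EPD. Among the 124 with counts in all 9 libraries, to which miR-151-3p belongs, a fit of these alone called 12.9% higher than in Control and 13.7% higher than in EPD. By abundance miR-151-3p ranked 61st to 85th in the LPD libraries, 122nd to 137th in EPD and 116th to 139th in Control.

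**Figure D1:**
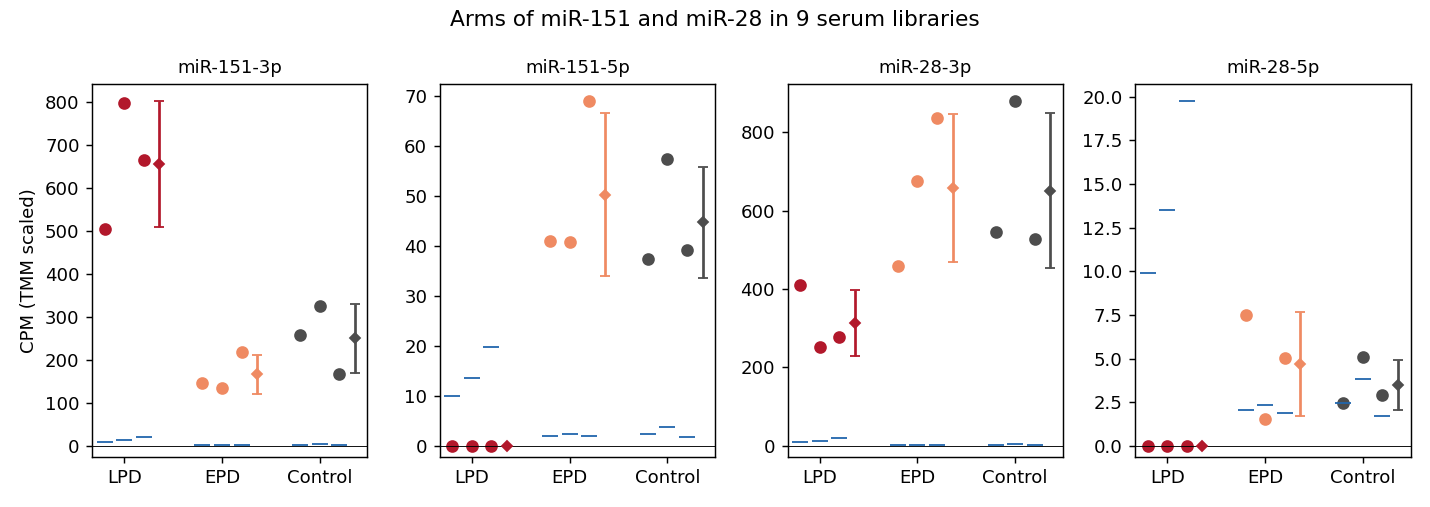
TMM-scaled CPM of each arm in every library (points), with the mean and SD of the group beside them (diamonds) and the level of 3 counts in that library (blue dashes). miR-151-3p lies at 503 to 796 CPM in LPD, above all other libraries, both 5p arms lie at 0 in LPD, and the miR-28-5p points of EPD and Control lie close to the level of 3 counts.

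The rise of miR-151-3p over EPD held in more of the fits than that over Control. It passed in 17 of 18 alternative fits against EPD, the exception being the fit without EPD 2 (adjusted p = 0.0518), and in 8 of 18 against Control. Against Control it was lost without Control 1 (adjusted p = 0.102), Control 3 (0.146), EPD 2 (0.0688), EPD 3 (0.0588) or LPD 2 (0.0776), with the replicate number as a block (0.113) and on counts per estimated molecule (0.0968). The log2 fold change stayed between 1.14 and 1.83 against Control and between 1.75 and 2.34 against EPD. The LPD counts were 152, 177 and 101, which came to an estimated 4.14, 3.61 and 8.19 molecules. In EPD the same arm stood on an estimated 90.6 to 123 molecules, and in Control on 82.6 to 296.

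**Figure D2:**
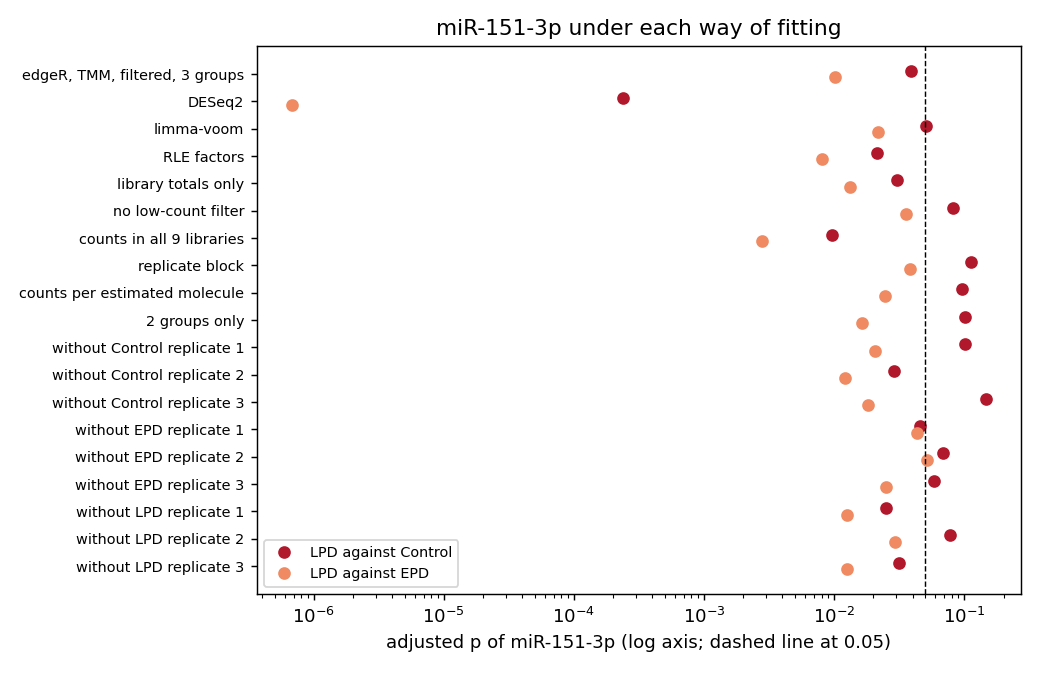
Adjusted p of miR-151-3p (log axis) in LPD against Control and in LPD against EPD under each way of fitting, with the threshold of 0.05 as a dashed line. Against EPD all points but the one without EPD 2 lie under the threshold, and against Control 10 of the 18 alternatives lie above it.

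The summed level of red cell miRNAs lay in a higher range in LPD than in Control. The 5 erythrocyte miRNAs measured of 6 listed summed to 235878 to 372674 CPM in LPD, 153124 to 394670 in EPD and 84539 to 169152 in Control, and none of them was without counts in any group. Most of this sum was miR-16-5p, with a mean of 282879 CPM in LPD and 127910 in Control (edgeR adjusted p = 0.0660). miR-486 was called higher in LPD than in Control (adjusted p = 0.0264), miR-144-3p did not pass (0.0511), and miR-451-5p and miR-144-5p overlapped between these groups. None of the 5 was called against EPD. The 6 platelet and megakaryocyte miRNAs summed to 83045 to 123582 CPM in LPD, 121503 to 215571 in EPD and 119790 to 149480 in Control, with LPD overlapping both. Of these 6, LPD against Control had 2 called higher and 2 called lower, and LPD against EPD 1 called higher and 1 called lower. In the hepatocyte list 1 of 4 and in the lymphocyte list 1 of 3 was called lower in both comparisons, and in the muscle list 0 of 3 was called. The hepatocyte miRNA so called, miR-802-5p, had no count in LPD. Of all 294 tested miRNAs, 32.7% were called lower in LPD in each comparison. Called higher were 4.42% against Control and 4.08% against EPD. The part of RNA from these cells and of depth in the level of miR-151-3p was not tested.

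miR-151-5p, the other arm of the same hairpin, had no count in any LPD library. It had 41.0, 40.8 and 69.0 CPM in EPD and 37.4, 57.5 and 39.2 in Control, from 45 to 110 counts a library. Its mean was 50.3 ± 16.2 CPM in EPD and 44.7 ± 11.1 in Control (SD, n = 3 each), and these groups overlapped. All LPD libraries thus lay below the other groups, as for 123 of 294 miRNAs (41.8%) against Control and 134 (45.6%) against EPD. It was called lower in LPD than in Control (edgeR adjusted p = 0.00522) and than in EPD (adjusted p = 0.00576), where 96 of 294 miRNAs (32.7%) were called lower in each comparison. Without counts in LPD, miR-151-5p passed the low-count filter through EPD and Control only. The same held for 68 tested miRNAs, miR-151-5p among them, for which only a lower call was possible. No fold is given. In LPD 1, LPD 2 and LPD 3 a single estimated molecule stood for 121, 221 and 81.2 CPM, each above the level of miR-151-5p in any EPD or Control library, although 3 counts stood for only 9.93 to 19.8 CPM. On counts per estimated molecule neither call passed (adjusted p = 0.325 against Control and 0.301 against EPD). The molecule estimate came from the number of miRNAs without counts, miR-151-5p among them in LPD, so this fit cannot decide on that arm.

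The lack of miR-151-5p in LPD is read against other miRNAs of its level. Among tested miRNAs with a mean of 25 to 100 CPM in EPD and Control, 27 of 68 (39.7%) had no count in any LPD library and 6 had counts in all 3. Among those of 100 to 500 CPM, the range of miR-151-3p, 3 of 63 (4.76%) had none. From 500 CPM upwards, the range of miR-28-3p, none lacked counts in all of LPD (0 of 47 below 2000 CPM and 0 of 51 above). The share without counts in LPD thus went with the level in the other groups. By its own level in EPD and Control, miR-151-5p lies in a range where such a lack was frequent. Its 3p arm rose in LPD, and at an unchanged arm ratio 36.4, 42.4 and 24.2 counts of miR-151-5p would be expected there. That higher level was not placed in these ranges.

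**Figure D3:**
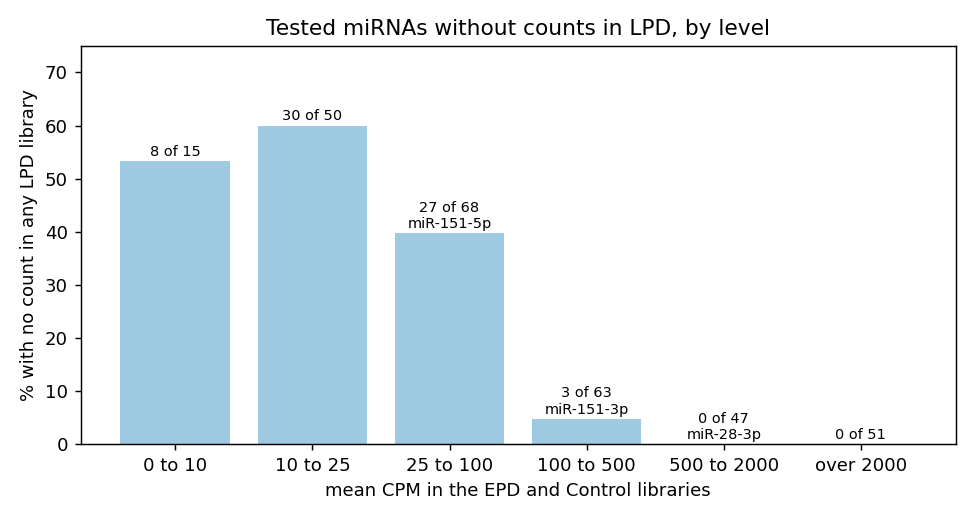
Share of tested miRNAs with no count in any LPD library (bars, with the numbers above), by their mean CPM in the EPD and Control libraries. miR-151-5p is in the range of 25 to 100 CPM, where 27 of 68 had no count, and miR-151-3p and miR-28-3p are in ranges where 3 of 63 and 0 of 47 had none.

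The share of miR-151 counts that came from the 5p arm is given for each library. The 5p arm made up 0 of 152, 0 of 177 and 0 of 101 miR-151 counts in LPD, which allows a share of up to 1.97, 1.69 and 2.97%. It made up 21.9, 23.3 and 24.1% in EPD and 12.7, 15 and 19.1% in Control, with Wilson 95% intervals of 17.4 to 27.2%, 18.3 to 29.3% and 20.4 to 28.2% in EPD and 9.66 to 16.5%, 11.4 to 19.5% and 15.4 to 23.5% in Control. EPD and Control did not overlap, but the difference did not pass its test, as given below. These intervals and limits cover counting error only. At the arm ratio of the EPD and Control libraries together (4.17 counts of 3p for each of 5p), the 3p counts of LPD would have gone with 36.4, 42.4 and 24.2 counts of miR-151-5p. That is an estimated 0.993, 0.865 and 1.96 molecules. Whether a lack of miR-151-5p in all LPD libraries goes beyond what such numbers of molecules would give was not tested.

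Between EPD and Control, where both arms had counts throughout, the log2 ratio of miR-151-3p to miR-151-5p was 1.73 ± 0.09 in EPD and 2.44 ± 0.35 in Control (SD, n = 3 each). The difference was -0.72 (exact two-sided permutation p = 0.1, adjusted over 9 ratio tests 0.18), and 0.1 is the smallest p that 3 against 3 libraries can give. It lay between -0.90 and -0.55 when any 1 library was left out. Neither arm was called on its own: miR-151-3p had a log2 fold change of -0.59 (95% interval -1.61 to 0.43) and miR-151-5p of 0.17 (-1.32 to 1.66), each with an edgeR adjusted p of 0.995. Of 72 miRNAs with both arms tested, 15 (20.8%) had arm ratios that did not overlap between EPD and Control, so miR-151 was 1 of many. The same held in LPD against Control for 23 of 72 (31.9%) and in LPD against EPD for 24 (33.3%). In 27 of the 72 the less abundant arm had no count in any LPD library, and in 24 of those the other arm had counts.

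**Figure D4:**
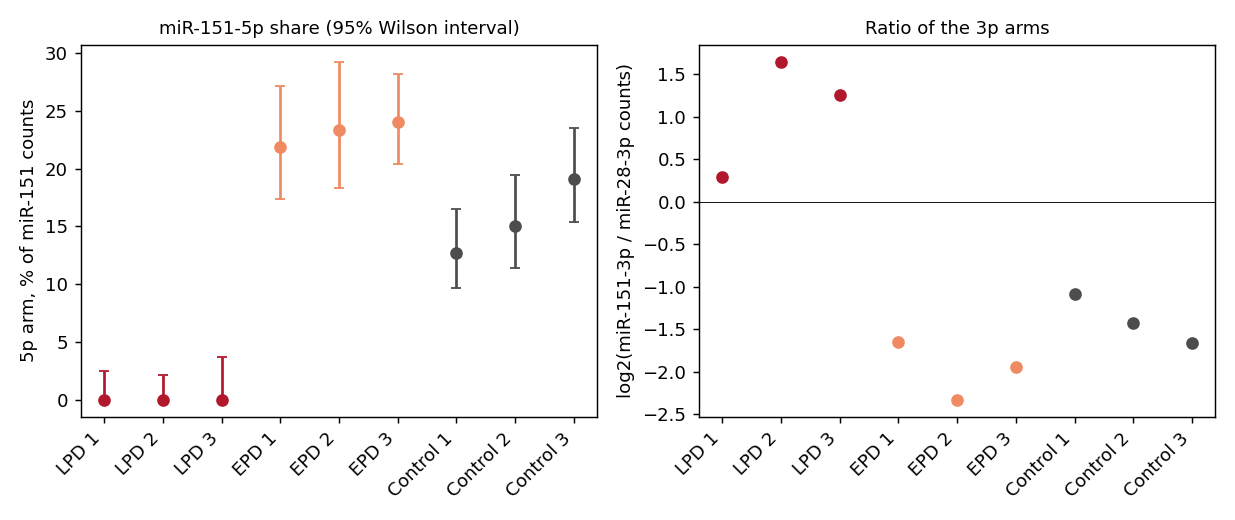
Left, the 5p arm as a percentage of miR-151 counts in each library with its 95% Wilson interval. Right, the log2 ratio of miR-151-3p to miR-28-3p counts in each library. The 5p share is 0 in LPD, 21.9 to 24.1% in EPD and 12.7 to 19.1% in Control, and the ratio of the 3p arms is above 0 in the LPD libraries only.

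miR-28-3p was lower in every LPD library than in any EPD or Control library, without passing the test. It had 410, 252 and 277 CPM in LPD, 460, 674 and 836 in EPD and 546, 880 and 527 in Control. The lowest EPD library lay close above the highest LPD library, and EPD and Control overlapped widely. The means were 313 ± 85.2 CPM in LPD, 657 ± 189 in EPD and 651 ± 198 in Control (SD, n = 3 each). The log2 fold change was -1.05 against Control (SE 0.42, 95% interval -2.01 to -0.10, edgeR adjusted p = 0.0839) and -1.07 against EPD (SE 0.42, -2.02 to -0.11, adjusted p = 0.0784). It did not pass in any of the 18 alternatives of either comparison. Such lower LPD values without overlap were frequent, as given above (41.8% and 45.6% of tested miRNAs). The 124, 56 and 42 counts of LPD came to an estimated 3.38, 1.14 and 3.41 molecules. In EPD against Control the log2 fold change was 0.01 (95% interval -0.93 to 0.95, adjusted p = 0.995), and its sign turned in 6 of 18 alternatives.

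**Figure D5:**
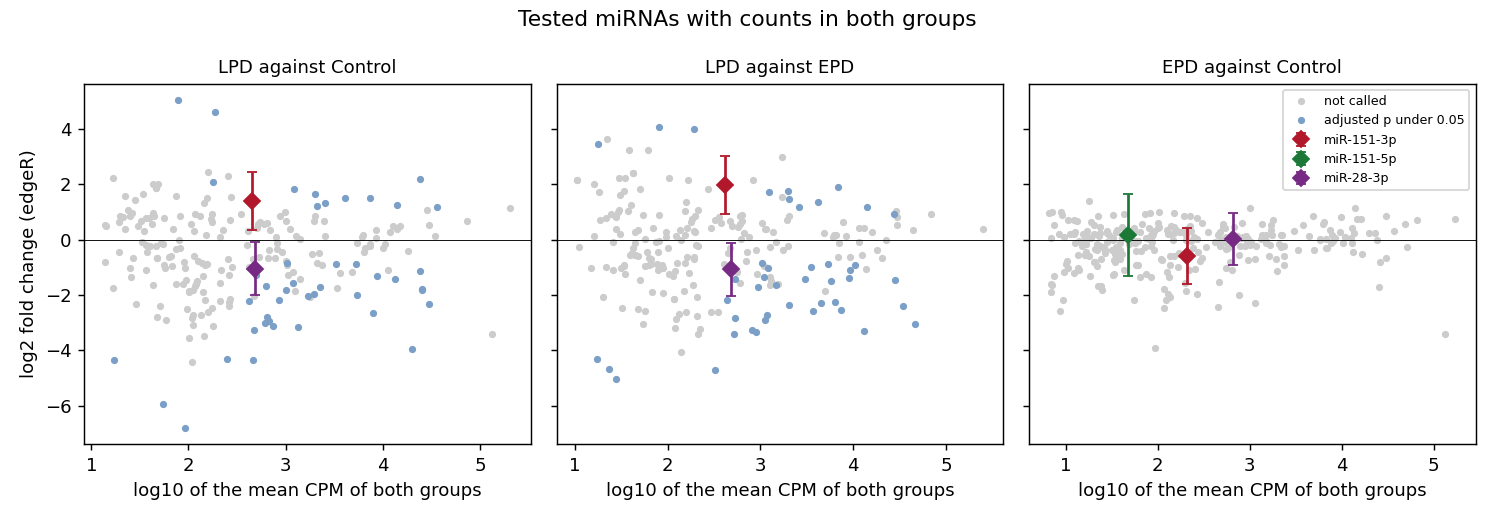
edgeR log2 fold change against log10 of the mean CPM of both groups, for tested miRNAs with counts in both, with the 95% interval for the miR-28 and miR-151 arms. miR-151-3p lies at 1.39 against Control and 1.98 against EPD, miR-28-3p at -1.05 and -1.07, and miR-151-5p, without counts in LPD, appears in EPD against Control only.

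The 3p arms of both loci were also set against each other within each library. The ratio of miR-151-3p to miR-28-3p needs no scaling between libraries, and its log2 was 0.29, 1.65 and 1.26 in LPD, -1.65, -2.33 and -1.94 in EPD and -1.09, -1.43 and -1.66 in Control. In LPD miR-151-3p thus had the higher count in all 3 libraries, and in EPD and Control miR-28-3p had it in all 6. The difference was 2.46 in LPD against Control and 3.04 in LPD against EPD (exact two-sided permutation p = 0.1 each, the smallest possible, adjusted 0.18). In EPD against Control it was -0.58 (exact p = 0.2, adjusted 0.3). These ratios rest on the same few LPD molecules as the levels.

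Scaling moved the level of all miRNAs in LPD. Over the 226 tested miRNAs with counts in both groups, the median log2 fold change against Control was -0.46 with TMM and higher by 0.24 with RLE factors. Relative to this median miR-151-3p stood at 1.85 with TMM, 1.90 with RLE factors and 1.88 with library totals, and miR-28-3p at -0.59, -0.57 and -0.58. Relative to the median against EPD (-0.28 with TMM), miR-151-3p stood at 2.26 and miR-28-3p at -0.78. Of the calls in LPD against EPD 11.1% were higher with edgeR, 25.4% with DESeq2 and 48.6% with edgeR over miRNAs with counts in all 9 libraries. Against Control the last of these was 42.1%, beside 11.9% over all tested miRNAs.

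miR-28-5p was near the limit of detection everywhere. It had no count in LPD, 11, 2 and 8 counts in EPD and 3, 4 and 5 in Control. That was 1.61, 0.228 and 0.597% of the miR-28 counts in EPD and 0.445, 0.577 and 0.544% in Control, so EPD spread on both sides of Control. At the arm ratio of EPD and Control, LPD would have held under 1 count in each library (0.794, 0.358 and 0.269). A lack of miR-28-5p in LPD was thus not detectable at this depth. The arm did not pass the low-count filter, and without the filter no comparison called it (edgeR adjusted p = 0.175 in LPD against Control, 0.941 in EPD against Control and 0.112 in LPD against EPD). The log2 ratio of miR-28-3p to miR-28-5p was 7.21 ± 1.29 in EPD and 7.41 ± 0.16 in Control (exact permutation p = 0.8, adjusted 0.9).

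miR-708-5p, with the seed of miR-28-5p, and miR-708-3p also lacked counts in LPD. miR-708-5p had 20, 27 and 40 counts in EPD and 102, 8 and 81 in Control, more than miR-28-5p in every library of those groups, so most counts with that seed came from miR-708. Both miR-708 arms were called lower in LPD than in Control (edgeR adjusted p = 0.00979 for 5p and 0.0174 for 3p) and than in EPD (0.0214 and 0.0163). Their means in EPD and Control, 11.4 to 46.6 CPM, lay below 1 estimated LPD molecule. Without counts in LPD, both arms passed the filter through EPD and Control only, so only a lower call was possible. Of 12 relatives and other miRNAs reported as LINE-2 derived, 8 were measured and 4 passed the filter. The miR-708 arms were the 2 called lower in LPD and none was called higher, beside 32.7% of all tested miRNAs called lower in each comparison, while miR-374-5p and miR-421-3p passed in no comparison. In EPD against Control none of the 4 was called, and of all 294 tested miRNAs edgeR called none (0%; 11 had an unadjusted p under 0.05, and DESeq2 called 1).

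The 3 miRNAs with the highest correlation to each arm are listed, and whether they differ between arms was not tested. Over the 9 libraries, among 123 others with counts in all 9, the log2 CPM of miR-151-3p correlated most with that of miR-6216 (r = 0.89), let-7d-5p (0.88) and miR-423-5p (0.87). That of miR-28-3p correlated most with miR-30d-5p (0.91), miR-30a-3p (0.91) and miR-339-5p (0.90). The points share 3 groups and the low depth of LPD. For miR-151-5p, over the 6 EPD and Control libraries and 289 others, the most like were miR-23a-5p (0.94), miR-181c-3p (0.91) and miR-191a-5p (0.90). With 6 points and so many candidates, values this high can arise by chance. miR-23a-5p and miR-181c-3p averaged 47.5 and 48.5 CPM in EPD and 44.7 and 39.6 in Control, much as miR-151-5p did. In LPD they had 33 and 30 counts in LPD 1 and none in LPD 2 or LPD 3. Those counts lie below the 36.7 of 1 estimated molecule in LPD 1, so the estimate is not exact there. The far more abundant miR-191a-5p had 3816, 2359 and 976 counts in LPD. It was called lower there than in Control (log2 fold change -2.33, edgeR adjusted p = 0.00522) and than in EPD (-3.06, adjusted p = 0.00576). Over the same 6 libraries miR-151-5p correlated with miR-28-3p by 0.84 and with its own 3p arm by 0.48. Over all 9 libraries, where miR-151-5p lacks counts in LPD, these values were 0.86 and -0.87. miR-151-3p and miR-28-3p correlated by -0.68 over the 9. For miR-28-5p, with 2 to 11 counts a library, the most like were miR-582-3p (0.98), miR-18a-3p (0.88) and miR-25-5p (0.84).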

How the data were processed

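Serum small RNA was made into QIAseq miRNA libraries, per the labels' protocols, and read from 1 end over 50 bases. Counts per mature miRNA are used as deposited by the authors, and 0 values differed between the matrix and the single-library files. The build was mRatBN 7.2, per the submitters' processing notes. Which aligner, counter and annotation were used, and whether the kit's molecular identifiers were, is not given in the sources used here. PCR reads without such identifiers are not independent molecules. In the RefSeq table the Mir151 locus overlaps an entry named Mir151b (miR-3586), whose listed arm had 5 counts in all libraries together.

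Groups and replicate numbers came from the sample titles, which name separate samples. No label gives a batch or says that equal numbers share an animal, so the p-values reflect the spread of these samples only. Within groups, the chi-square between the counts of any pair of libraries was at least 30.7 times its degrees of freedom, the lowest being that of LPD 1 and LPD 2. Since an estimated molecule stood for 36.7 and 49.1 counts there, this does not show that those 2 libraries differ beyond the sampling of molecules.

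The filter was filterByExpr by group, with a minimum of 10 counts and of 15 over all libraries, which kept 294 miRNAs and 3 of the 4 arms. Counts were scaled by TMM, and all 9 libraries were fitted together with the robust quasi-likelihood model of edgeR 4.0.16 (R 4.3.3), with Benjamini-Hochberg adjustment over all 294 and a threshold of 0.05. Standard errors came from the fold change and its F statistic. Ratios within a library used a prior of 0.5 counts and exact two-sided permutation tests (SciPy 1.17.1), 9 in all. Molecules were estimated as the number at which the mean profile of the other EPD and Control libraries gives the observed number of miRNAs without counts. A count of 0 was taken to allow up to 3 counts. The edgeR fit was also run on counts simulated at the total of each library. That simulation set no limit on molecules, so it does not show how the fit behaves at the few molecules of LPD.

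Alternatives were DESeq2 1.42.0, limma-voom 3.58.1, RLE factors, library totals, no filter, counts in all 9 libraries, only the 2 groups compared, the replicate block, counts per estimated molecule, each library left out, and priors of 0.1 and 1 for ratios. Named are the 4 arms, the miR-708 arms and other tested members of a list of 12 relatives, and the 3 miRNAs most like each arm by Pearson correlation of log2 CPM. The lists were written from general knowledge. Members and lists were chosen with earlier results of these data known.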

Additional observations from a re-analysis of the deposited data

How the results depend on the processing

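Adjusted p of miR-151-3p in LPD against Control was 0.0511 with limma-voom, 0.0812 without the low-count filter, 0.113 with the replicate block, 0.0968 on counts per estimated molecule, 0.101 with the 2 groups only and 0.0248 to 0.146 with 1 library left out. It was 2.37e-04 with DESeq2. In LPD against EPD it was 0.0120 to 0.0518 with 1 library left out. The calls of miR-151-5p were lost on counts per estimated molecule (0.325 against Control, 0.301 against EPD), where 24 to 42 expected counts become few molecules, and stayed with 1 library left out (0.00627 to 0.0181 and 0.00561 to 0.0215). In EPD against Control changes near 0 turned: miR-151-5p without EPD 3 (-0.11, adjusted p = 0.998), and miR-28-3p with DESeq2 (-0.01, 0.999), RLE factors (-0.01, 0.998), counts in all 9 libraries (-0.03, 0.964) and without Control 1, Control 3 or EPD 3 (-0.04 to -0.18); with 1 library left out their adjusted p were 0.904 to 0.999 and 0.951 to 0.999. The miR-28 arm ratio, which rests on 0 to 11 counts of 5p, turned with a prior of 0.1 (1.83 in LPD against Control, 2.05 in LPD against EPD), and with 1 library left out ranged from -0.82 to 0.47 in EPD against Control and from -0.81 to 0.48 in LPD against EPD. The miR-151 arm ratio in LPD depends on the prior, since its 5p count is 0. Calls over all miRNAs were 109 in LPD against Control (38 for counts in all 9 libraries, 35 on counts per estimated molecule, 52 with 2 groups only) and 108 in LPD against EPD (35, 43 and 67). In EPD against Control they were 0, with 1 for DESeq2 and for counts in all 9 libraries, and 0 to 1 with 1 library left out. The cause of these changes was not tested. Deviations of same-numbered libraries correlated by -0.09 to 0.06, so the replicate block tests no known pairing. For miR-28-5p, the low counts of LPD limit what can be said. For miR-151-5p, the low estimated number of molecules does.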
